A study of Rattus norvegicus with 18 samples.

Results

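Satellite cells are the resident stem cells of skeletal muscle, and 8 genes that mark them were followed through 18 tibialis anterior libraries of rats: Pax7, Calcr, Fgfr4, Megf10, Cdh15, Chrdl2, Hey1 and Heyl. They were chosen by symbol, and all 8 were found among the 30560 entries of the deposited gene tables (Pax7 as ENSRNOG00000018739, Calcr as ENSRNOG00000010053, Fgfr4 as ENSRNOG00000016763, Megf10 as ENSRNOG00000013674, Cdh15 as ENSRNOG00000027954, Chrdl2 as ENSRNOG00000018394, Hey1 as ENSRNOG00000062882 and Heyl as ENSRNOG00000015318). The libraries came from 9-month-old p16-null DMD rats (6 libraries, titled dKO), 9-month-old DMD rats (3 libraries), and wild-type (WT) rats of 3, 9 and 18 months (3 libraries at each age). The p16-null DMD rats carry the DMD genotype as well as the loss of p16, and no p16-null rat with an intact Dmd gene is among the groups. The labels do not describe the Dmd or p16 alleles, and give no sex or strain. RNA was taken from frozen muscle sections, so each value covers all the cell types of the tissue. In such bulk RNA, fewer satellite cells and less of an RNA per satellite cell cannot be told apart. The design text sets the 3 groups of 9 months against each other and WT of 18 months against WT of 3 months. It counts rats, so each library is taken as 1 rat.

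A satellite cell lies between the muscle fibre and its basal lamina and is quiescent in healthy adult muscle. It is kept in that state by Notch signals, by the calcitonin receptor and by contact with the fibre, and after injury it activates, divides and either renews itself or commits to fusion under the Myod1 and Myog programme. In Duchenne muscular dystrophy, fibres that lack dystrophin break down and regenerate repeatedly, which draws on this pool throughout life.

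Library totals ran from 9.61 M to 21.99 M counts. Every member passed the filter on low counts in both fits, and Calcr was the least counted, with 3 to 29 counts in a library, so that its values carry the largest counting error. Dmd was measured for the label. Its level was 42.5 ± 8.33 CPM (counts scaled to library size) in p16-null DMD (SD, n = 6) and 36.9 ± 6.65 CPM in DMD (SD, n = 3), against 140 ± 26.9 CPM in WT of 9 months (SD, n = 3). In the deposited TPM (scaled by transcript length) it ran from 6.88 to 12.28 in p16-null DMD and 7.35 to 11.15 in DMD, against 12.38 to 17.98 in WT of 9 months. Myofibre genes were lower as well, as given below, so the Dmd level alone does not check the genotype label. Cdkn2a, the gene that encodes both p16 and the distinct protein Arf, lay at 10.1 to 15.3 CPM in p16-null DMD and 10.7 to 19.4 CPM in DMD, against 0 to 0.184 CPM in WT of 9 months. A gene-level count adds the transcripts of both products, so it does not check the p16-null label. Myofibre genes took 24882 to 54046 CPM in sum in p16-null DMD and 30343 to 46868 CPM in DMD, against 114899 to 131956 CPM in WT of 9 months (7 genes). Macrophage genes summed to 1477 to 4478 CPM in p16-null DMD and 2243 to 3524 CPM in DMD, against 375 to 399 CPM in WT of 9 months (10 genes). The directions reported for dystrophic muscle depend on how libraries are scaled. Scaling by TMM, which assumes that most genes do not differ, put the median gene 0.11 above WT (log2) in DMD, while scaling by library totals put it 0.76 above. The part of the change in cell makeup in the results was not tested, and both scales are given.

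Per length, the 8 genes were expressed at low and unequal levels. In deposited TPM, which are scaled by transcript length and allow levels of different genes to be compared, Heyl and Cdh15 led in every group. Heyl lay at 8.06 ± 1.53 TPM in p16-null DMD, 6.55 ± 1.90 TPM in DMD and 5.46 ± 0.400 TPM in WT of 9 months (SD, n = 6, 3 and 3). Cdh15 lay at 6.60 ± 1.88 TPM in p16-null DMD, 5.74 ± 0.674 TPM in DMD and 6.61 ± 1.49 TPM in WT of 9 months. Calcr was the lowest in every group, at 0.722 ± 0.123 TPM in p16-null DMD, 0.467 ± 0.202 TPM in DMD and 0.370 ± 0.195 TPM in WT of 9 months. Hey1, Fgfr4 and Chrdl2 took the places between, at group means of 2.19 to 4.80 TPM. Pax7 and Megf10 lay below these 3 in every group. The 8 genes together summed to 32.2 ± 5.25 TPM in p16-null DMD and 25.8 ± 2.13 TPM in DMD, against 24.6 ± 4.65 TPM in WT of 9 months.

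**Figure D1:**
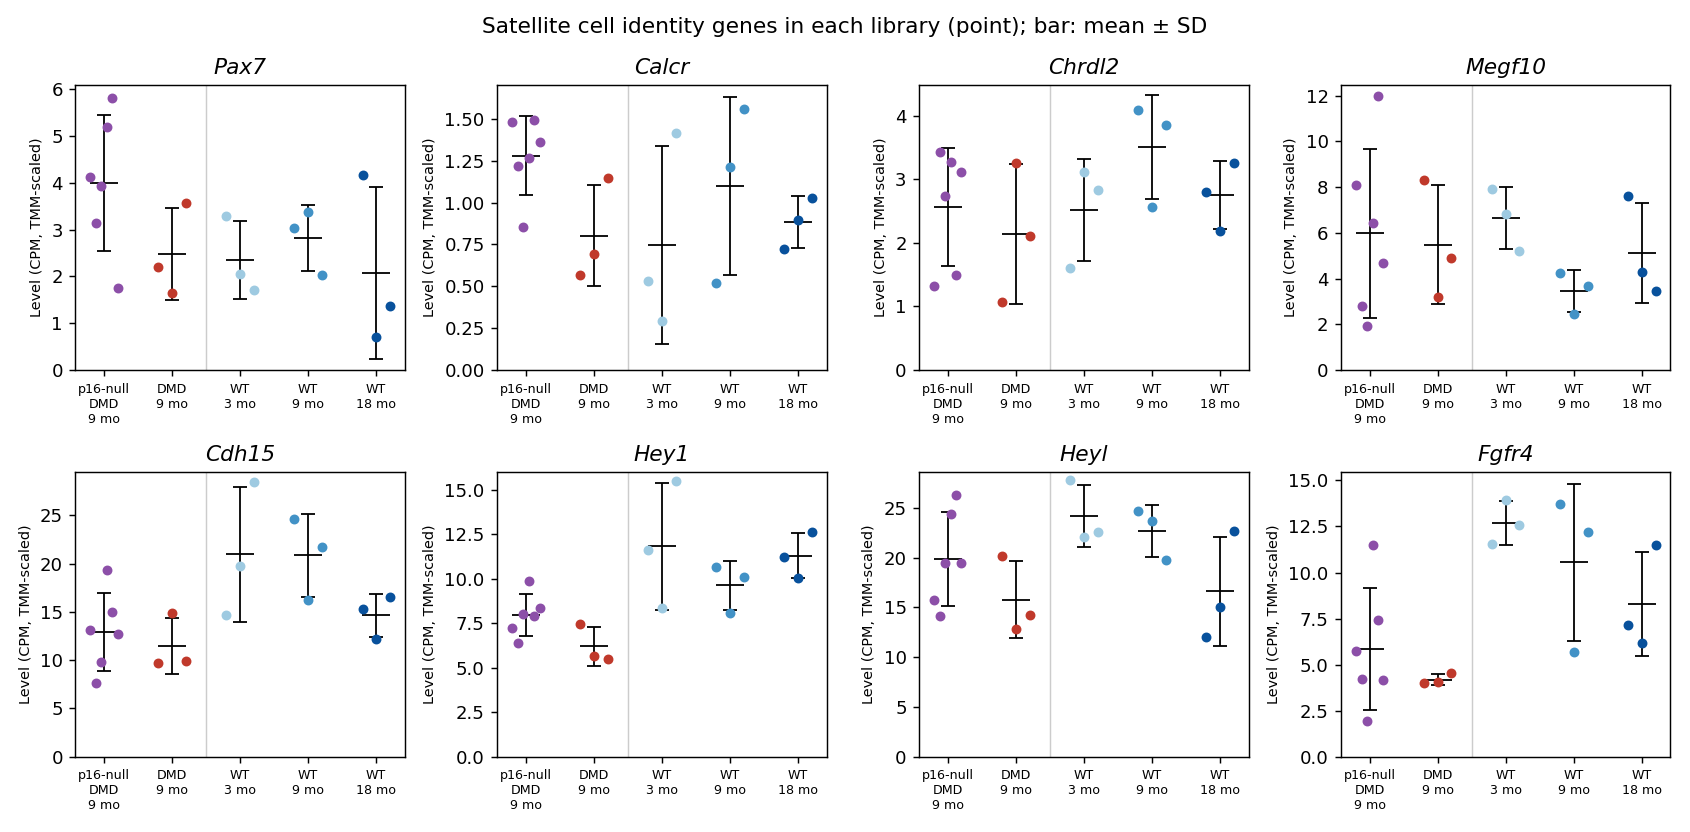
Level of each of the 8 satellite cell genes in every library, in CPM scaled by TMM factors over all 18 libraries (one panel a gene, axis from 0), for p16-null DMD, DMD and WT of 3, 9 and 18 months; points are libraries and bars are means ± SD. In each panel the groups next to each other in the order of means overlap in range, and the 3 DMD points of Cdh15, Hey1 and Fgfr4 lie under all 3 WT points of 9 months, which they do not in TPM. Between these groups 56.4% of all genes did not overlap in CPM and 67% in TPM.

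Start regions of 4 members are shown because these genes stand for the regulator (Pax7), the Notch effectors (Heyl), and the adhesion molecule and receptor that were lower in DMD (Cdh15 and Fgfr4). Each runs from 250 bases before the RefSeq transcription start to 50 bases after it, in build GRCr8, which is not the build of the counts. Capitals mark matches on either strand to CANNTG (the E-box, the core bound by Myod1 and other myogenic factors), CATTCC (the M-CAT core, bound by TEAD factors) and TGGGAA (the core bound by RBPJ, the DNA-binding partner of Notch). No 2 of the marked matches overlap. The regions are chr5:157381072-157381371 on the minus strand for Pax7, chr19:67814407-67814706 on the plus strand for Cdh15, chr17:9481340-9481639 on the minus strand for Fgfr4 and chr5:140793021-140793320 on the plus strand for Heyl.
Pax7: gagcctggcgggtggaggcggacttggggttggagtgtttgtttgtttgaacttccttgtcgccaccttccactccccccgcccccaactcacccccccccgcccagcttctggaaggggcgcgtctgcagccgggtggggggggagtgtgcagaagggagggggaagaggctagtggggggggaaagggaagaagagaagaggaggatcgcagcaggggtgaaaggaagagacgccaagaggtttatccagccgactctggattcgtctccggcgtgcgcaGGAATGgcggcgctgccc
Cdh15: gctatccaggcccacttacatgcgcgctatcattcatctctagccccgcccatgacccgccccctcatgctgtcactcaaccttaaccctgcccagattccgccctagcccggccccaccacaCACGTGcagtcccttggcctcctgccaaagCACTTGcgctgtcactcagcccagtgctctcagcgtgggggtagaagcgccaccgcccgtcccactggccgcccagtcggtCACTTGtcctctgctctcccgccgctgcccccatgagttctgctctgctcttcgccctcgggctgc
Fgfr4: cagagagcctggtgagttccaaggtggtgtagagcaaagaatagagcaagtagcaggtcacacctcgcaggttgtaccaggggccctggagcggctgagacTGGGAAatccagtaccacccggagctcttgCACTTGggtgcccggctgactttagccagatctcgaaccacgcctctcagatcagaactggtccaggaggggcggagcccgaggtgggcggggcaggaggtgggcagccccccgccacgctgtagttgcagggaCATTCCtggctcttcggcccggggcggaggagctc
Heyl: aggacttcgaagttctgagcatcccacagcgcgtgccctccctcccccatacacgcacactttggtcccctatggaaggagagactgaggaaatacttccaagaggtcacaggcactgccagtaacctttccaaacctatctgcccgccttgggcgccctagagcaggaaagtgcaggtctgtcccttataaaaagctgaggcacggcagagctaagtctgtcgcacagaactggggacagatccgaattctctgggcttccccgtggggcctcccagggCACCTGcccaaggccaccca
Cdh15 held 3 E-boxes, at -127 (CACGTG), -97 and -16 (both CACTTG) from the start. Fgfr4 and Heyl held 1 each, and Pax7 and Calcr held 0. An E-box stands in 72.1% of all 33469 RefSeq promoters of this length, with a mean of 1.36 a promoter. The M-CAT core was found in Fgfr4 and, as its reverse complement GGAATG in the printed sequence, in Pax7, against 14.2% of all promoters. The RBPJ core was found in Fgfr4 at -149, against 25.7% of all promoters, and its letters are not in the Heyl window. RefSeq promoter sequences were matched for 5 of the 8 members (Pax7, Calcr, Cdh15, Heyl and Fgfr4), and these matches are descriptions of letters only.

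Pax7, the paired-box factor that satellite cells need to persist, had its highest group mean in p16-null DMD. Its level ran from 1.75 to 5.82 CPM in the 6 p16-null DMD libraries, with a median of 4.03 CPM. It was 2.20, 1.65 and 3.57 CPM in DMD. In WT it was 3.28, 2.04 and 1.70 CPM at 3 months, 3.04, 3.38 and 2.02 CPM at 9 months, and 4.16, 0.698 and 1.37 CPM at 18 months. Replicate 6 of p16-null DMD stood low in its group, 4 of the 6 p16-null DMD libraries lay above every DMD library, and all ranges overlapped. At 18 months 1 WT library exceeded every younger WT library while another held only 7 counts. Pax7 was 0.69 ± 0.38 (log2, SE) higher in p16-null DMD than in DMD, which did not pass (edgeR quasi-likelihood test, adjusted p = 0.938), and the 95% interval ran from -0.12 to 1.51.

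Calcr, the calcitonin receptor that holds satellite cells in quiescence in mice, also had its highest group mean in p16-null DMD, at far lower counts. It ran from 0.856 to 1.496 CPM (median 1.31) in p16-null DMD and was 0.569, 0.694 and 1.15 CPM in DMD. WT libraries held 0.533, 0.292 and 1.42 CPM at 3 months, 0.522, 1.22 and 1.56 CPM at 9 months and 0.724, 0.898 and 1.03 CPM at 18 months. Of the 6 p16-null DMD libraries 5 lay above all 3 DMD libraries, yet 2 of the 3 WT libraries of 9 months lay in or above the p16-null DMD range. The difference of p16-null DMD from DMD was 0.66 ± 0.47 (log2, SE; 95% interval -0.34 to 1.66), with an adjusted p of 0.959 in the edgeR quasi-likelihood test.

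Fgfr4, a fibroblast growth factor receptor of satellite cells and regenerating fibres, was the member most reduced in DMD on the TMM scale. It was 3.98, 4.06 and 4.52 CPM in DMD, against 13.7, 5.67 and 12.2 CPM in WT of 9 months. In p16-null DMD it ran from 1.94 to 11.5 CPM, with a median of 4.99 CPM. WT libraries held 11.5, 13.9 and 12.6 CPM at 3 months and 7.15, 6.19 and 11.5 CPM at 18 months. The DMD libraries were tightly grouped below every WT library of every age, while the p16-null DMD libraries spread from below DMD up to just under the 3-month level of WT. In CPM, 56.4% of all genes did not overlap between DMD and WT of 9 months. Replicate 4 of p16-null DMD, the deepest library, was the high one.

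Megf10, an engulfment receptor that in mouse satellite cells favours proliferation over differentiation, varied widely between p16-null DMD rats. It ran from 1.94 to 11.97 CPM (median 5.54) in p16-null DMD and was 8.32, 3.20 and 4.90 CPM in DMD. In WT it was 7.90, 6.81 and 5.20 CPM at 3 months, 4.26, 2.43 and 3.68 CPM at 9 months, and 7.60, 4.29 and 3.44 CPM at 18 months. The 9-month WT libraries were low and close together, and both dystrophic groups reached from within or below their range to well above it. Megf10 was the only member whose TPM in DMD, at 2.64, 0.89 and 1.60, lay wholly above WT of 9 months, at 0.75, 0.41 and 0.71. Of all genes 67% were separated in TPM between these groups, in either direction.

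Cdh15, or M-cadherin, joins the satellite cell to its fibre. It was 9.67, 14.8 and 9.94 CPM in DMD, against 24.6, 16.2 and 21.7 CPM in WT of 9 months, and it ran from 7.59 to 19.3 CPM in p16-null DMD with a median of 12.9 CPM. The WT levels were 14.6, 19.8 and 28.5 CPM at 3 months and 15.3, 12.2 and 16.5 CPM at 18 months. All DMD libraries lay under all WT libraries of 9 months, and among the p16-null DMD libraries only replicate 4 reached the WT range of that age. Of all genes 56.4% were separated in CPM between DMD and WT of 9 months, in either direction. Chrdl2, a secreted chordin-like antagonist of bone morphogenetic proteins, ran from 1.32 to 3.44 CPM (median 2.93) in p16-null DMD and was 1.07, 3.25 and 2.10 CPM in DMD. In WT it was 1.60, 3.11 and 2.84 CPM at 3 months, 4.09, 2.57 and 3.86 CPM at 9 months and 2.81, 2.20 and 3.26 CPM at 18 months. Its ranges overlapped in every pair of groups next to each other, with the highest group mean in WT of 9 months and the lowest in DMD.

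Hey1 and Heyl are transcriptional repressors switched on by Notch, which together keep satellite cells undifferentiated in mice. Hey1 was 7.47, 5.66 and 5.48 CPM in DMD, against 10.7, 8.10 and 10.1 CPM in WT of 9 months, and ran from 6.37 to 9.86 CPM (median 7.97) in p16-null DMD. It was 11.6, 8.37 and 15.5 CPM in WT of 3 months and 11.2, 10.1 and 12.6 CPM in WT of 18 months. Every DMD library was under every WT library, and the p16-null DMD libraries lay across the gap. Separation of DMD from WT of 9 months in CPM held for 56.4% of all genes. Heyl was 20.1, 12.9 and 14.3 CPM in DMD, against 24.7, 23.6 and 19.8 CPM in WT of 9 months, and ran from 14.1 to 26.3 CPM (median 19.4) in p16-null DMD. In WT it was 27.8, 22.1 and 22.6 CPM at 3 months and 12.04, 15.1 and 22.7 CPM at 18 months. In DMD and at 18 months 1 library stayed within the range of the compared WT group and 2 lay below it. Both genes are also active in endothelial and mural cells. The 9 measured endothelial markers summed to 685 to 830 CPM in p16-null DMD and 622 to 782 CPM in DMD, against 676 to 792 CPM in WT of 9 months, and the 10 mural markers to 725 to 1036 CPM in p16-null DMD and 881 to 1032 CPM in DMD, against 920 to 1037 CPM in WT of 9 months. In TPM the endothelial sums were 419 to 547 in p16-null DMD, against 273 to 308 in WT of 9 months. The mural sums were 803 to 1131 TPM in p16-null DMD, against 562 to 681 TPM in WT of 9 months. Both sums in DMD also lay wholly above WT of 9 months in TPM. By library totals 5 of 9 endothelial markers were called higher in DMD and 0 lower. Of the 10 mural markers 6 were called higher there and 1 lower. None of these markers was at 0, and their part in the Hey1 and Heyl values was not tested.

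In DMD muscle, 3 of the 8 satellite cell genes fell relative to WT of 9 months on the TMM scale and none rose. These were the receptor Fgfr4, at -1.34 ± 0.49 (log2, SE), the adhesion gene Cdh15, at -0.86 ± 0.29, and the Notch effector Hey1, at -0.63 ± 0.23, with adjusted p-values of 0.0336, 0.0247 and 0.0358 in the edgeR quasi-likelihood test. Pax7, at -0.18 ± 0.44, Calcr, at -0.44 ± 0.55, Chrdl2, at -0.71 ± 0.48, and Heyl, at -0.52 ± 0.24, did not pass, nor did Megf10, the single member above 0, at 0.65 ± 0.56. The signs of Pax7, Calcr, Hey1 and Heyl turn on both the total and the TPM scale. The same test called 48.3% of the 14801 genes, 26.4% higher and 21.8% lower, so 3 lower of 8 is read against about 1 in 5. The members' median was -0.58, against 0.11 for all genes.

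None of the 3 calls held by library totals or in TPM. By library totals the genes called were 52% higher and 8.38% lower, and the members gave 0 calls. On log2(TPM + 1), where limma called 54.4% of genes higher and 7.05% lower, the members again gave 0 calls. DESeq2, which called 50.7%, kept all 3, with adjusted p-values of 0.0126 for Fgfr4, 0.0111 for Cdh15 and 0.0135 for Hey1. Hey1 lost its call with no filter on low counts (0.0697) and with only the groups compared in the fit (0.0659). By totals Fgfr4 stood at -0.69 (adjusted p = 0.205), Cdh15 at -0.22 (0.476) and Hey1 at 0.010 (0.972), while Megf10, at 1.31, came closest to a call among the rest (0.0501). Fgfr4 lost its call without WT replicate 1 (adjusted p = 0.122), WT replicate 3 (0.0915) or DMD replicate 1 (0.0766), 2 (0.0779) or 3 (0.0702). Cdh15 lost it without WT replicate 1 (0.0987) or 3 (0.064) or DMD replicate 1 (0.0813) or 3 (0.0891). Hey1 lost it without WT replicate 1 (0.108) or 3 (0.0831) or DMD replicate 2 (0.10) or 3 (0.119), and Heyl passed at -0.75 (0.0279) without DMD replicate 1. Between DMD and WT, in CPM, 3 of 8 members did not overlap between the groups, against 56.4% of all genes, and in TPM 1 member (Megf10), against 67% of all genes.

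**Figure D2:**
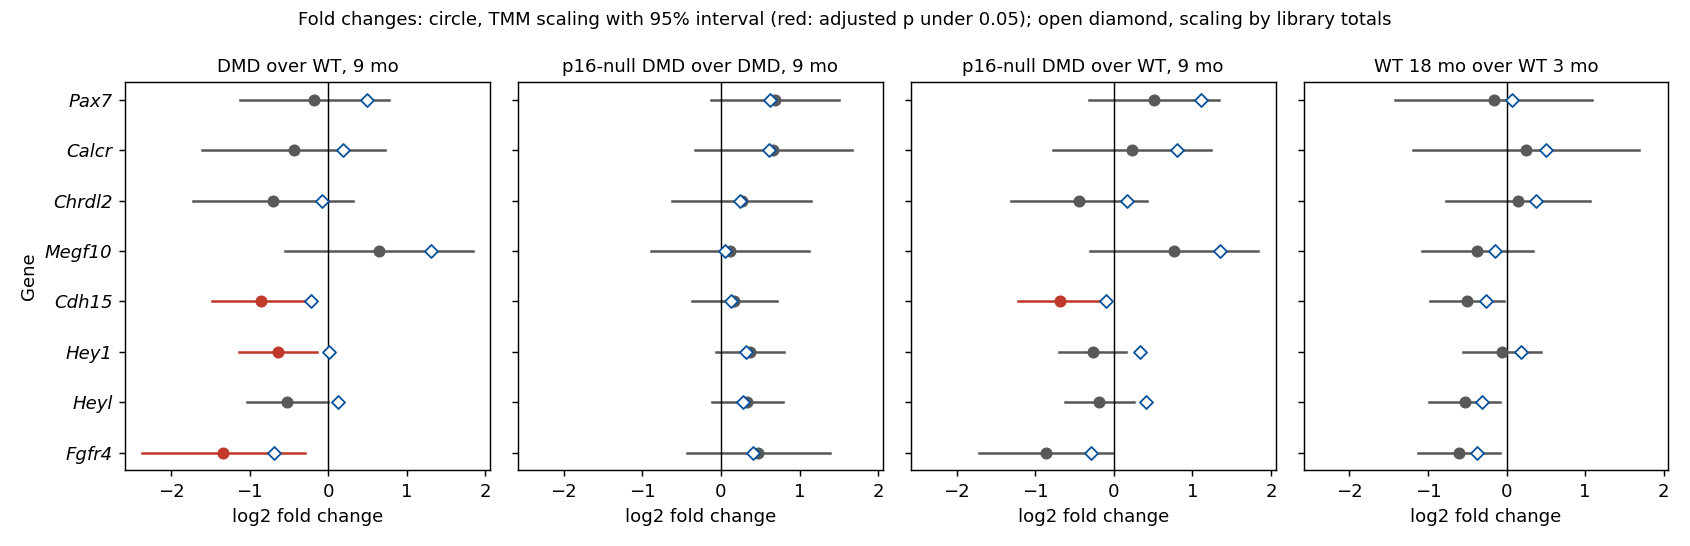
Log2 fold change of each member with its 95% interval in the 4 comparisons, from edgeR with TMM scaling (circles, red where the adjusted p is under 0.05) and with library totals (open diamonds); 0 means no difference. Between the dystrophic groups and WT the diamonds lie to the right of the circles, so that Pax7, Calcr, Hey1 and Heyl change sign in DMD; between p16-null DMD and DMD the points nearly coincide and all 8 are above 0.

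Between p16-null DMD and DMD, which asks what the loss of p16 adds in dystrophic muscle, none of the 8 genes changed. All 8 estimates were above 0 on the TMM scale: Pax7 and Calcr as given, Fgfr4 at 0.48 ± 0.43 (log2, SE), Hey1 at 0.36 ± 0.20, Heyl at 0.34 ± 0.21, Chrdl2 at 0.27 ± 0.41, Cdh15 at 0.17 ± 0.25 and Megf10 at 0.11 ± 0.47. Every 95% interval included 0. The 2 groups overlapped in CPM and in TPM for each member, and 2.01% and 1.82% of all genes did not overlap. The highest upper end was 1.66, for Calcr, and those of Hey1 and Heyl ended at 0.80 and 0.78, so larger differences than these in Hey1 and Heyl lie outside their intervals. Unadjusted p-values were under 0.05 for 0 members, and DESeq2 and limma on TPM also called 0. Over all genes edgeR called 0.00676% (1 gene), DESeq2 0.101% (15 genes) and limma 1 gene, with 764 genes at an unadjusted p under 0.05, against 740 expected by chance. Leaving out DMD replicate 1 raised the edgeR count to 85 genes, with 0 members among them, and turned Chrdl2 to -0.041. Megf10 turned to -0.16 without DMD replicate 2 and to -0.20 without p16-null DMD replicate 5, and it turned to -0.026 on the TPM scale with a pseudocount of 0.1. The 8 estimates rest on the same libraries, so their shared sign does not count as 8 observations.

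Against WT of 9 months, p16-null DMD muscle had 1 of 8 members lower and none higher by TMM. Cdh15 fell by 0.69 ± 0.25 (log2, SE; adjusted p = 0.0301, edgeR quasi-likelihood test). Fgfr4 was at -0.86 ± 0.40 (0.088), Pax7 at 0.51 ± 0.39 (0.288) and Megf10 at 0.77 ± 0.50 (0.218), none of which passed, and the remaining 4 lay between -0.44 and 0.23. The share of all genes called was 50.2%, with 27.5% higher and 22.7% lower. The DMD and the p16-null DMD comparison use the same 3 WT libraries, so they are not independent.

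By library totals the outcome for p16-null DMD was different, with 2 members called higher and 0 lower, against 54.5% of all genes higher and 8.45% lower. Pax7 then stood at 1.11 (adjusted p = 0.022) and Megf10 at 1.35 (0.0264), and Cdh15 at -0.10 (0.721). On log2(TPM + 1) with limma, Pax7 was at 0.80 (0.0125) and Heyl at 0.47 (0.044), with 59.6% of all genes called higher and 6.64% lower. DESeq2 called 52.6% of all genes and, of the members, Cdh15 as lower (0.0179). Chrdl2, Hey1 and Heyl had opposite signs on the TMM scale and on the total and TPM scales. The call on Cdh15 was lost without WT replicate 1 (0.145), WT replicate 3 (0.0866) or p16-null DMD replicate 3 (0.0555). Fgfr4 passed, as lower, without WT replicate 2 (-1.15, 0.0426) or p16-null DMD replicate 4 (-1.18, 0.015). In TPM the libraries of Hey1 and Heyl lay wholly above WT of 9 months, at 3.91 to 5.07 TPM against 2.61 to 3.68 TPM for Hey1 and 6.12 to 10.3 TPM against 5.10 to 5.89 TPM for Heyl. Such separation held for 58.7% of all genes in TPM and, in CPM, for 45.3% of all genes and 0 members.

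Ageing of WT muscle was compared at 18 against 3 months, and none of the 8 satellite cell genes passed. Heyl stood at -0.53 ± 0.21 (log2, SE; adjusted p = 0.0986, edgeR quasi-likelihood test), Fgfr4 at -0.60 ± 0.24 (0.104) and Cdh15 at -0.50 ± 0.22 (0.136). These 3 of 8 had an unadjusted p under 0.05, as did 4231 of all 13487 genes. Megf10 was at -0.37 ± 0.33, Pax7 at -0.17 ± 0.58, Hey1 at -0.06 ± 0.23, Chrdl2 at 0.14 ± 0.43 and Calcr at 0.25 ± 0.67, with Pax7 and Hey1 above 0 by library totals and on log2(TPM + 1). DESeq2, which called 20.4% of genes, and limma on log2(TPM + 1), which called 22.5% higher and 3.18% lower, also called 0 members. Of all 13487 genes 19.4% were called, 9.31% higher and 10.1% lower by TMM, and 19.3% higher and 4.83% lower by library totals. The members' median was -0.27, against 0.00 for all genes.

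The age comparison turned on single libraries. Heyl (-0.82, adjusted p = 0.0163) and Fgfr4 (-0.91, 0.025) passed as lower without WT 18-month replicate 3, the library in which both were highest at that age. Cdh15 passed (-0.70, 0.0291) without WT 3-month replicate 1, which held the lowest Cdh15 level at 3 months. Heyl also passed when genes of low count were kept in the fit (0.0348). Only Fgfr4 did not overlap between the ages in CPM, by a margin of 11.51 at most at 18 months against 11.54 at least at 3 months, and 36.1% of all genes were so separated. In TPM 0 members were separated, against 44.9% of all genes.

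Ratios between members of 1 library do not depend on the scaling factor of that library. The ratios described were picked after their values had been seen and carry no test. Pax7 amounted to 0.482 ± 0.166 of the Cdh15 level in TPM in p16-null DMD (SD, n = 6) and 0.349 ± 0.173 in DMD (SD, n = 3), against 0.203 ± 0.0836 in WT of 9 months (SD, n = 3). It was 0.190 ± 0.116 in WT of 3 months and 0.205 ± 0.178 in WT of 18 months. Thus the group means were higher in dystrophic muscle, while the lowest p16-null DMD library, at 0.211, and the lowest DMD library, at 0.178, lay within the WT range of 0.133 to 0.296 at 9 months. Single WT libraries reached 0.318 at 3 months and 0.410 at 18 months, the latter above the DMD mean.

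The ratio of Fgfr4 to Heyl ran the other way. It was 0.432 ± 0.188 in p16-null DMD and 0.414 ± 0.0988 in DMD, against 0.699 ± 0.296 in WT of 9 months, and 0.799 ± 0.162 and 0.758 ± 0.146 in WT of 3 and 18 months. The dystrophic range reached 0.698, in p16-null DMD replicate 4. One WT library of 9 months, at 0.362, lay within that range, as did WT 3-month replicate 1, at 0.621, and WT 18-month replicate 2, at 0.609. The ratio of Heyl to Hey1, the Notch effectors, differed by less than its SD between p16-null DMD (1.76 ± 0.300), DMD (1.79 ± 0.155) and WT of 9 months (1.69 ± 0.344). At 18 months it was 1.03 ± 0.256, against 1.53 ± 0.442 at 3 months.

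**Figure D3:**
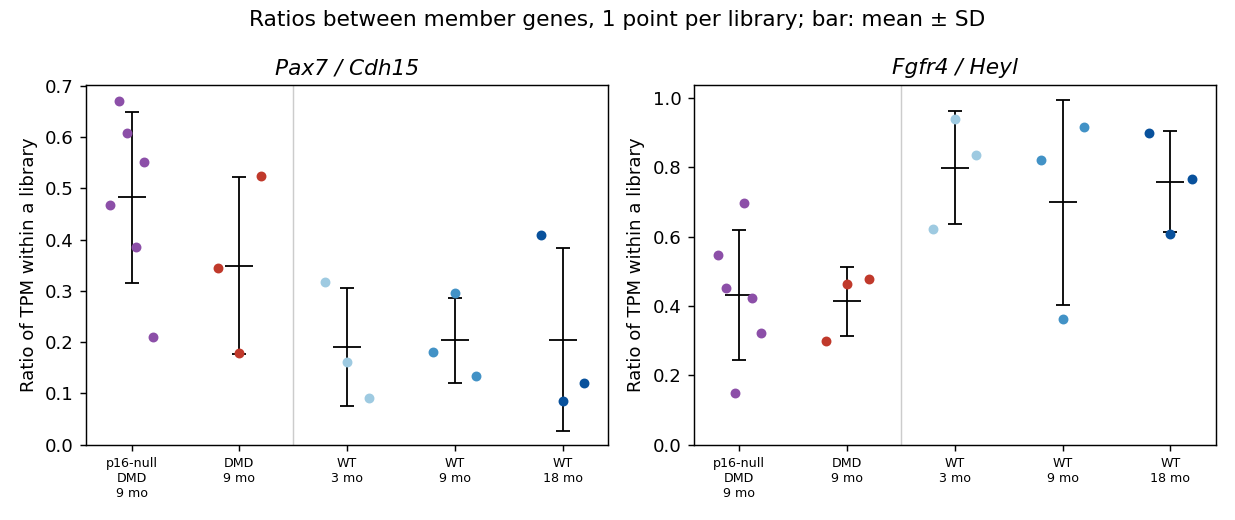
Ratios between member levels in TPM in each library (points) with means ± SD (bars), for p16-null DMD, DMD and WT of 3, 9 and 18 months. The mean of Pax7 over Cdh15 is 0.482 in p16-null DMD and 0.349 in DMD, against 0.203 in WT of 9 months, and the mean of Fgfr4 over Heyl is 0.432 and 0.414, against 0.699, with overlapping points in both cases.

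Lists of other genes of the same pathways were measured beside the 8 members, and the contrast between lists and members was not tested. In DMD against WT of 9 months the list counts are read against the 26.4% of all genes called higher and 21.8% called lower. Among 15 tested further satellite cell genes 7 rose and 1 fell, with a median of 0.79 (log2). Vcam1, an adhesion receptor, rose by 2.47 ± 0.28, Peg3, an imprinted zinc-finger gene, by 1.90 ± 0.25 and Cd82, a tetraspanin, by 1.87 ± 0.21. Macrophages, fibroblasts or vessels also express these genes, and every one of 10 macrophage and 10 fibro-adipogenic markers rose in DMD. The part of those cells was not tested. Among 11 tested genes of myogenic commitment and early fibre formation 6 rose and 2 fell (median 1.31): embryonic myosin Myh3 rose by 6.87 ± 0.50, cardiac actin Actc1 by 3.55 ± 0.33 and the embryonic light chain Myl4 by 2.59 ± 0.23. The 2 that fell, named after their values were seen, were the commitment regulator Myod1, at -1.06 ± 0.36 (adjusted p = 0.0223, edgeR quasi-likelihood test), and the fibre regulator Myf6, at -0.79 ± 0.30 (0.041). Neither passed by library totals, at -0.43 (0.288) and -0.16 (0.653), nor in TPM. Myod1 lost its call without WT replicate 1 (0.105) or 3 (0.0649) or DMD replicate 1 (0.0858) or 3 (0.0558), and Myf6 without WT replicate 2 (0.223) or 3 (0.0711), DMD replicate 1 (0.125) or 3 (0.134) or p16-null DMD replicate 4 (0.0508). Myh3 stood at 243 ± 80.1 CPM in p16-null DMD and 216 ± 88.0 CPM in DMD, against 1.79 ± 1.17 CPM in WT of 9 months.

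Partners of the members were also measured in DMD, in the same RNA of all cell types. All 10 fibro-adipogenic markers rose there (median 1.86), against 26.4% of all genes, and the part of other cell types in the values below was not tested. In the Notch list 4 of 16 genes rose and 1 fell (median 0.39), a share of risers near that of all genes: the receptor Notch2 rose by 1.63 ± 0.19, the receptor-modifying enzyme Lfng by 1.33 ± 0.24 and the ligand Jag1 by 1.002 ± 0.23 (log2, SE). In the fibroblast growth factor list 5 of 14 rose and 2 fell (median 0.49): the receptor Fgfr1 rose by 1.27 ± 0.20, the ligand Fgf7 by 1.60 ± 0.38 and the feedback phosphatase Dusp6 by 1.03 ± 0.21. Of 7 other cadherin and catenin genes 4 rose and 0 fell (median 0.40): Cdh11 rose by 2.43 ± 0.26, Cdh2, or N-cadherin, by 2.18 ± 0.31 and Ctnna1, which links cadherins to actin, by 0.73 ± 0.15. Of 6 genes around the calcitonin receptor 4 rose and 0 fell (median 1.56), with the collagen V chains Col5a2 at 1.87 ± 0.25 and Col5a3 at 1.24 ± 0.20 and the receptor partner Ramp3 at 2.42 ± 0.41. Collagen V is reported as a Calcr ligand of mouse satellite cells. Of 6 further bone morphogenetic protein antagonists 3 rose and 1 fell (median 0.61): Chrdl1, the paralogue of Chrdl2, rose by 1.47 ± 0.28, Chrd by 2.14 ± 0.41 and Bmper by 1.25 ± 0.27. Of 4 other Megf genes 2 rose and 0 fell (median 0.69), Megf6 by 4.14 ± 0.52. Each list gene named above as risen in DMD kept its call, at adjusted p under 0.05, in all 24 alternatives. These genes were picked by smallest p in the same comparison, which favours keeping the call. Some of the alternatives only left out a p16-null DMD library, which is not in this comparison. Megf9, the other Megf gene that rose, kept its call in 20 of 24. All of its losses came from leaving out a library of the 2 groups compared. These were WT replicate 1 (adjusted p = 0.0568, edgeR quasi-likelihood test) or 2 (0.0594) and DMD replicate 1 (0.05) or 3 (0.0682).

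By library totals, which called 52% of all genes higher in DMD, the lists gave more calls too, at 11 of 15 further satellite cell genes, 12 of 16 Notch genes, 10 of 14 fibroblast growth factor genes, 8 of 11 commitment genes and 6 of 7 cadherin and catenin genes, with 0 lower in these lists. Between p16-null DMD and DMD edgeR called 0 genes in every list by TMM and by totals, and limma on TPM also called 0. In p16-null DMD against WT of 9 months 8 of 15 further satellite cell genes and 8 of 11 commitment genes rose by TMM and 0 fell, the medians being 0.80 and 1.88, against 27.5% of all genes higher and 22.7% lower.

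**Figure D4:**
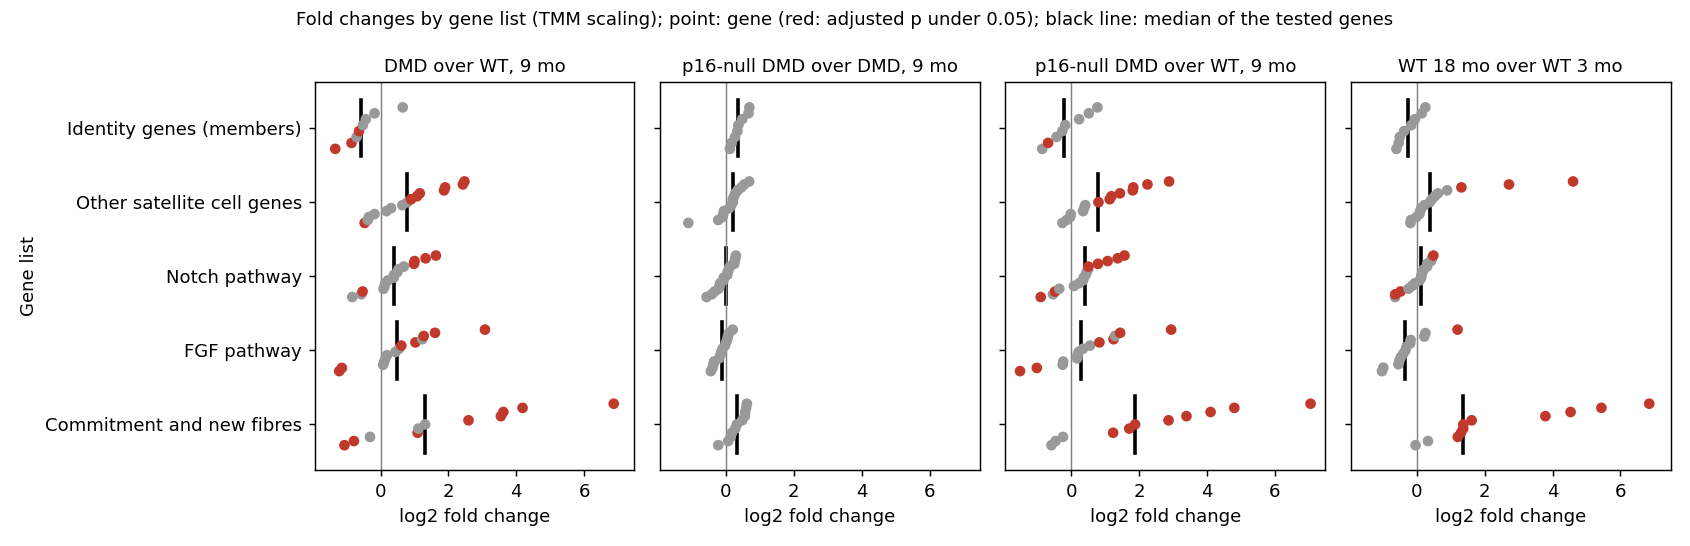
Log2 fold change of each tested gene (points) (red where the adjusted p is under 0.05) and list median (black lines) for the 8 members and 4 lists of related genes, by TMM, in the 4 comparisons. The members' medians are -0.58 in DMD against WT of 9 months and -0.27 in WT of 18 against 3 months, under those of the commitment list at 1.31 and 1.37.

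At 18 months 9 of 11 tested commitment genes rose and 0 fell relative to 3 months (median 1.37), against 9.31% of all genes higher and 10.1% lower. Myog, the regulator of terminal differentiation, was 193, 216 and 242 CPM at 18 months, against 8.34, 6.81 and 13.1 CPM at 3 months, a rise of 4.53 ± 0.21 (log2, SE; adjusted p = 3.73e-09, edgeR quasi-likelihood test). Mymx, a micropeptide of myoblast fusion, rose by 6.85 ± 0.43 and Myh3 by 3.79 ± 0.27. Mymx was 102, 141 and 93.9 CPM at 18 months, against 0.355, 0.0973 and 2.46 CPM at 3 months, and its rise came to 8.85 without WT 3-month replicate 3 and to 6.34 without WT 3-month replicate 2, or 6.44 without replicate 1. The 2 age groups were far apart in each of these genes, whereas Pax7 in the same libraries overlapped. Of 15 further satellite cell genes 3 rose: Ncam1, the neural cell adhesion molecule, by 4.60 ± 0.15, Myf5, an early myogenic factor, by 2.72 ± 0.34 and Cd82 by 1.31 ± 0.20. Ncam1 was 236, 196 and 203 CPM at 18 months, against 8.26, 9.15 and 8.80 CPM at 3 months. Ncam1 and Myog are also made by denervated fibres, and the part of fibres and of satellite cells in them was not tested.

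In the Notch list 1 of 16 genes rose with age and 2 fell, shares near those of all genes. In the fibroblast growth factor list 1 of 13 rose (Fgf7, by 1.20 ± 0.24) and 0 fell, and in the cadherin and catenin list 2 of 8 rose and 0 fell, Cdh13 by 0.58 ± 0.12. Around the calcitonin receptor 3 of 5 genes fell and 0 rose, Col5a3 by 1.50 ± 0.19 on the log2 scale, while limma on log2(TPM + 1) gave 1 higher and 1 lower. Thus Col5a3 was lower at 18 than at 3 months and higher in DMD than in WT of 9 months. Chrd rose by 2.03 ± 0.28. Fgf7, Cdh13, Col5a3 and Chrd, picked by smallest p in this same comparison, kept their call in all 17 alternatives. Other genes of smallest p in these lists kept it less often. Of 17 alternatives, Notch3 and Col5a1 kept it in 14, Col5a2 in 13, Jup in 12, Nrarp in 9 and Dll4 in 7. Nog kept it in 15 of 16. Among these Notch3, Jup and Nog were higher at 18 months and the others lower. By library totals 8 of 15 further satellite cell genes and 9 of 11 commitment genes were called higher at 18 months, against 19.3% of all genes.

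The genes whose pattern over the 18 libraries was nearest to that of Pax7 were Dcaf7, Xylt1 and Slc35d1. Likeness was the mean absolute difference of standardised log2 CPM, at 0.531, 0.535 and 0.539, against a median of 1.12 over 12379 genes. Among these genes Megf10 ranked 1606, Calcr 4921, Heyl 5526, Fgfr4 8132, Hey1 8427, Cdh15 9220 and Chrdl2 10896. So 4 of the other 7 members were farther from Pax7 than the median gene, and Pax7 itself was measured by 7 to 119 counts a library, which adds counting noise to its pattern.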

How the data were processed

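Gene tables of 18 rat muscle libraries were used as deposited by the authors: RSEM expected counts (estimated counts, 4.50% of values not whole) and TPM, which the authors scaled by transcript length and library. RSEM 1.3.3, STAR 2.7.10b, FastQC and Trimmomatic are listed with build mRatBN7.2, per the submitters' processing notes. The strand setting and the annotation release are not given in the sources. Symbols came from the deposited tables, where 7162 of 30560 entries have none.

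Counts were rounded, filtered by filterByExpr, scaled by TMM and tested with edgeR 4.0.16 (quasi-likelihood, R 4.3.3), in 1 fit of the 9-month groups (14801 genes) and 1 of WT at 3 and 18 months (13487 genes). P-values were adjusted over all genes of a fit by Benjamini-Hochberg, with a threshold of 0.05, and measure only the spread between these libraries. Levels of 1 gene are CPM on TMM factors of all 18 libraries, and levels of different genes are TPM. Tests were checked on simulated data with few changed genes and no shift in scale between groups, so that check does not cover the choice of scaling. No 2 replicates were alike within counting noise.

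The 8 members and the lists were chosen with earlier results of these data known. Named besides are, from each list, up to 3 genes of smallest p that passed, Myod1 and Myf6 in DMD (chosen after their values were seen), and the 3 genes nearest to Pax7 at a mean of at least 1 CPM (prior count 2). Alternatives were RLE scaling, library totals, DESeq2 1.42.0, limma 3.58.1 on log2(TPM + 1) and log2(TPM + 0.1), other filters (none; at least 5 CPM in 3 libraries), dropping the 50 most abundant genes, a robust fit, other sets of libraries in the fit, a replicate block, and each library left out. List genes without an entry under their symbol were not analysed here.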

Additional observations from a re-analysis of the deposited data

How the results depend on the processing

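RLE scaling, a robust fit and leaving out the 50 most abundant genes changed no call or direction of a member. Scaling by library totals or testing TPM moved the split of higher and lower genes wherever WT was compared, by construction, since TMM recentres the libraries. By library totals 7691 genes were higher and 1240 lower in DMD than in WT, 8071 and 1251 in p16-null DMD than in WT, and 2609 and 652 at 18 than at 3 months. On log2(TPM + 1) these were 8058 and 1044, 8818 and 983, and 3031 and 429. On log2(TPM + 0.1) they were 8318 and 1035, 9036 and 970, and 2938 and 417. Under all 3, 0 members were lower in DMD or in p16-null DMD than in WT, and 2, 2 and 3 were called higher for p16-null DMD against WT.

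Reversed members, by totals, TPM + 1 and TPM + 0.1 in that order, were these (log2). In DMD against WT, Pax7 came to 0.49, 0.34 and 0.51, Calcr to 0.19, 0.10 and 0.31, Hey1 to 0.010, 0.10 and 0.13, and Heyl to 0.13, 0.20 and 0.22. In p16-null DMD against WT, Chrdl2 came to 0.17, 0.21 and 0.26, Hey1 to 0.33, 0.38 and 0.47, and Heyl to 0.42, 0.47 and 0.53. At 18 against 3 months Hey1 came to 0.18, 0.27 and 0.33, and Pax7 to 0.067 by totals and 0.012 on TPM + 1. Megf10 came to -0.026 on TPM + 0.1 in p16-null DMD against DMD. The cause of these reversals beyond the scaling was not tested.

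For p16-null DMD against DMD, DESeq2 called 15 genes, 2 higher and 13 lower, and 0 members. With no filter 1 member, Heyl, was lower at 18 months. One fit of all 18 libraries called 1742 genes at 18 against 3 months, 868 of them lower. A filter of at least 5 CPM in 3 libraries left 5 of the 8 members.

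No pairing by replicate number was seen: deviations of same-numbered libraries correlated at -0.20 to 0.06. Such values cannot show that the samples share no litter or batch. With a replicate block, 0 genes changed between p16-null DMD and DMD (0 lower), and Megf10, Cdh15 and Fgfr4 came to -0.46, -0.21 and -0.14. In p16-null DMD against WT 2 members were lower under the block, Fgfr4 at -1.42 (adjusted p = 0.0214) being added. In DMD against WT the block left 2 members lower, Hey1 having an adjusted p of 0.0672. With no filter, and with only the groups compared in the fit, 2 members were likewise lower, Hey1 having 0.0697 and 0.0659. Myod1 lost its call in DMD under the block (0.0551).

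Leaving out 1 library at a time, 0 to 3 members were lower in DMD than in WT, 0 to 2 in p16-null DMD than in WT and 0 to 2 at 18 than at 3 months. Genes changed between p16-null DMD and DMD numbered 1 to 85 (0 to 5 higher, 1 to 80 lower), and 1696 to 2415 at 18 against 3 months (843 to 1255 lower). Some values changed sign in this way. Pax7 ran from -0.53 to 0.054 in DMD against WT and Calcr from -0.12 to 0.59 in p16-null DMD against WT. In p16-null DMD against DMD, Chrdl2 ran from -0.041 to 0.70 and Megf10 from -0.20 to 0.56. At 18 against 3 months Pax7 ran from -1.15 to 0.24, Chrdl2 from -0.10 to 0.33, Calcr from -0.12 to 1.07 and Hey1 from -0.25 to 0.17. None of the reversed values passed, apart from Heyl in p16-null DMD on TPM. Depth limits Calcr most.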
